A study of Mus musculus with 6 samples.

Results

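Collagens, laminins and matrix glycoproteins are the structural proteins that cells secrete and assemble around themselves. The set described here holds 41 mouse genes, of the 53465 genes in the deposited count table, taken by gene symbol: 15 collagen chains, 8 laminin chains, 2 nidogens and 16 other matrix glycoproteins. RNA was sequenced from ID8, an established tumour-forming line derived from the surface epithelium of the mouse ovary, in 3 libraries labelled WT and 3 libraries labelled KO. The series describes ID8 cells stably carrying a control guide (sgNC) and ID8 cells stably carrying a guide against Nat10 (sgNat10), and the WT label was read as the control guide and the KO label as the Nat10 guide. The NAT10 protein acetylates cytidines in RNA, and the study asked which transcripts follow its depletion. No drug or other agent is named for these libraries, and whether each line was a clone or a pool is not stated in the labels. Guide and line therefore cannot be told apart. The labels number the replicates 4, 5 and 6 in each group without saying that they are separate cultures, so the spread behind the p-values may be only technical.

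Collagens are trimers whose chains must fold together. The fibrillar types I, III and V form cables, type IV forms the net of basement membranes, and type VI forms beaded filaments. Laminins are trimers of an alpha, a beta and a gamma chain that lie beside collagen IV, and nidogens bridge both nets. Fibronectin, fibulins, fibrillins and latent TGF-beta binding proteins join fibres to cells and hold growth factors in store. Ovarian surface cells are a mesothelium resting on a basement membrane, and both basement membrane and fibrillar matrix genes are known from cells of this kind.

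Total counts ran from 1687466 to 3126208 per library, so 1 count was worth 0.310 to 0.608 CPM (the count scaled by the TMM-adjusted library size). Nat10 mRNA itself stood at 102, 64.0 and 168.8 CPM in WT against 123, 57.0 and 138 under the KO label, which overlap (log2 fold change -0.07 ± 0.48 SE, edgeR adjusted p = 0.99996), so the directions below are those of the labels. Of 11 markers of ovarian surface epithelium and mesothelium, 10 had a count and Epcam had none. Their summed level ran from 6220 to 6680 CPM across the WT libraries and from 4680 to 5340 across the KO-labelled ones, without overlap. Krt19 was the largest part of this sum, at a mean of 4202 CPM in WT and 2223 under the KO label. Of the 7 tested genes of the list, 3 had estimates above 0, 3 below, and Wt1 was at -0.00. Msln passed as higher and Krt18 and Krt19 as lower, and the part of these differences in the results below was not tested. KO replicate 6 stood apart in another way. It had a count for 20 of 32 markers of fibroblasts, smooth muscle, endothelium and leukocytes, Dcn set aside, against 0 to 3 of 32 in each of the other 5 libraries. Thy1, Fap, Myh11, Cnn1, Cldn5 and Cd3e were among those at 0 in all 6. The summed level was at most 8.69 CPM for smooth muscle, 6 CPM for endothelium and 14.5 CPM for leukocytes in any library, while the fibroblast list, at 666 to 737 CPM in WT and 951 to 1320 CPM under the KO label, was almost wholly Dcn, which was counted in every library. Genes with 1 to 9 counts made up 18.9% of its counted genes and 12.9% to 15.2% in the others. Fewer cells that make a transcript and less of it per cell cannot be told apart in such bulk RNA.

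At least 1 read was counted for 38 of the 41 genes, and 19 were counted in all 6 libraries. Lama3, Lamb3 and Nid2 had none, where a total of 3 counts over a group would be 0.558 CPM for WT and 0.369 for the KO label. These limits cover counting error only, because amplified reads are not independent molecules. The genes with 10 or more counts in at least 3 libraries numbered 22, and change is described for these alone. All 22 were also the members that passed the low-count filter of the test. They comprised 9 of 15 collagens, 4 of 8 laminin chains, neither nidogen and 9 of 16 other glycoproteins. Just inside this limit were Col6a1, Col5a1 and Col12a1, with 3 libraries each. Col6a1 entered through its WT libraries alone, so it had to differ. Just outside were Matn2, with 35 and 31 counts in KO replicates 4 and 5 and 0 elsewhere, and Fbn1, with 21 counts in WT replicate 6, 74 in KO replicate 6 and 0 elsewhere. Annotated exons of other genes cover 20.1% of the exon bases of Fbn1 and at most 4.57% in any of the 22, reached in Efemp2.

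**Figure D1:**
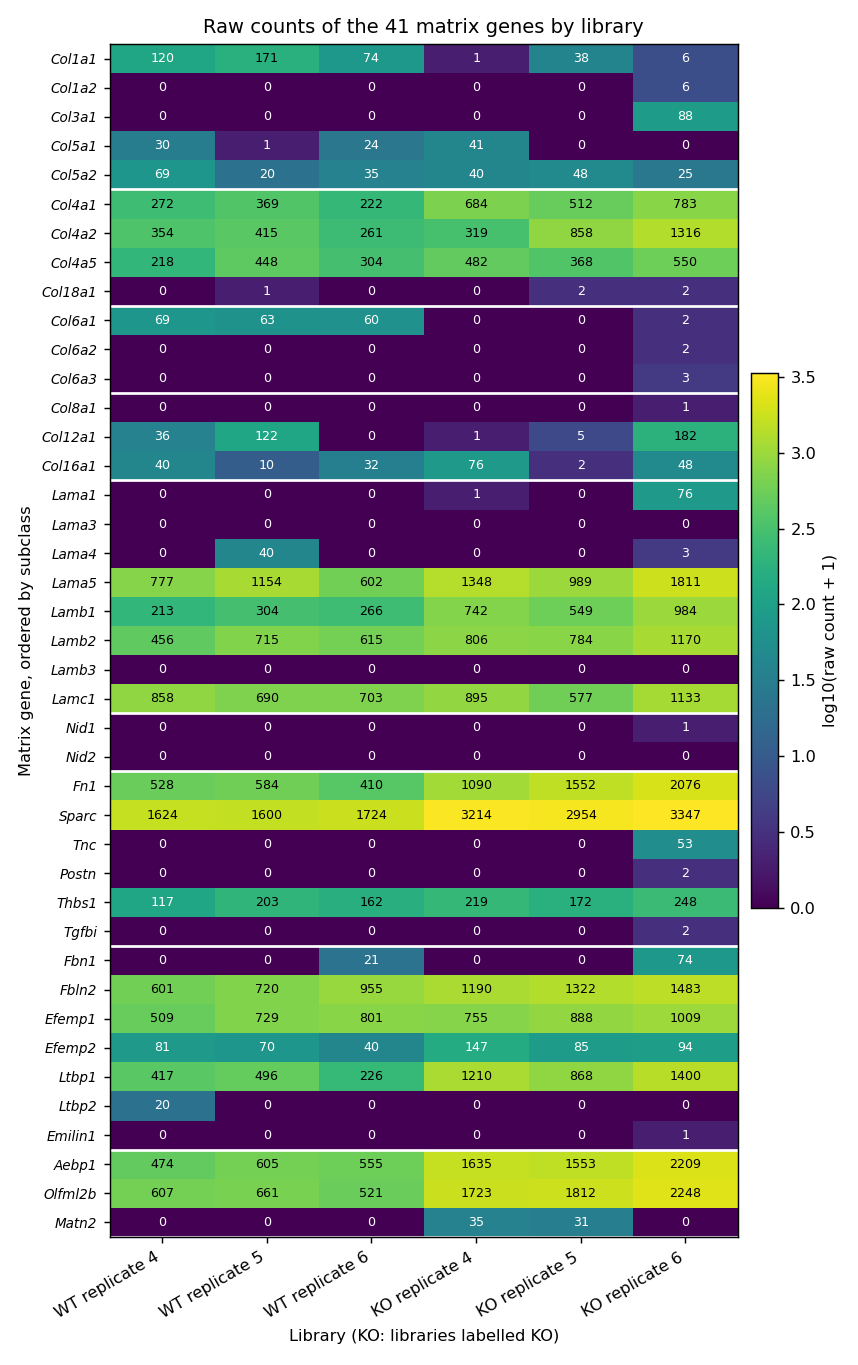
Raw counts of the 41 matrix genes (rows, grouped by subclass between white lines) in the 6 libraries (columns), coloured by log10 of the count plus 1, with the count written in each cell. The column of KO replicate 6 holds small counts in rows that are at 0 elsewhere, and Col6a1 is filled in the 3 WT libraries and at 0, 0 and 2 in the KO-labelled ones.

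The remaining 19 genes were mostly absent or seen in a single library. Of the 16 that had a count, 14 had one in KO replicate 6 and 10 had it in that library only. Col3a1, the main partner of type I fibres, had 88 counts there and 0 in the other 5. Tnc, the anti-adhesive tenascin C, had 53 there and 0 elsewhere, and Lama1, the laminin alpha chain of early embryos, had 76 there, 1 in KO replicate 4 and 0 elsewhere. Smaller counts of 1 to 6 in KO replicate 6 alone belonged to Col1a2, Col6a2, Col6a3, Col8a1, Nid1, Postn, Tgfbi and Emilin1. KO replicate 6 was the deepest library. Thinned to the smallest total, with reads taken as independent, it would be expected to show 32.3 members with a count. Each of the others would show 21.9 to 23.6. At 10 or more counts the expected numbers were 22.9 for KO replicate 6 and 19.0 to 23.0 for the others, and the part of depth was not tested. The same library held the other-cell-type markers given above, and their part in these counts was not tested. Ltbp2 was seen only in WT replicate 4, with 20 counts, and Lama4 had 40 counts in WT replicate 5 and 3 in KO replicate 6. Col18a1 had at most 2 counts in any library.

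Levels between genes were compared per kilobase of annotated exon. Sparc, a collagen-binding matricellular protein, had the highest level, at 245 ± 29.4 CPM per kb in WT against 313 ± 33.7 under the KO label (SD over 3 libraries each). Efemp1, a fibulin, followed in WT at 186 ± 38.2 CPM per kb, and Olfml2b, an olfactomedin-domain glycoprotein, took that place in KO-labelled libraries at 231 ± 17.5. Of the 41 genes, 15 reached 10 CPM per kb in both groups. Among these the only collagens were the type IV chains Col4a1, Col4a2 and Col4a5. The laminin chains Lamb2, Lamc1 and Lama5 stood at 54.3 ± 7.52, 51.3 ± 10.9 and 40.9 ± 10.1 CPM per kb in WT, which do not differ beyond their spread. Col16a1, Col5a2, Col12a1 and Col5a1 were the lowest of the 22 by their mean over both groups, each under 3 CPM per kb in either.

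The members that passed the test were Aebp1 and Olfml2b, both higher in the KO-labelled libraries. That is 2 of 22, where 0.402% of all 8200 tested genes passed in either direction and 0.183% as higher. Aebp1 encodes a secreted carboxypeptidase-like protein that binds collagen fibres, and Olfml2b a secreted glycoprotein that binds glycosaminoglycans. Ltbp1 is set beside them here as a further member with higher values, although it did not pass. To show what lies before these genes, the 250 bases upstream of their RefSeq start (RefSeq, GRCm38.p6) are printed 5′ to 3′ on the plus strand, the gene's strand in each case. Of the 41 genes, 30 have an entry in that table, and these 3 are the members with an unadjusted p under 0.05 whose window holds no annotated exon (for Ltbp1, the more upstream of its 2 starts). Capitals mark matches to 4 searched motifs on either strand, TATAAA for the TATA box, CCAAT for the CCAAT box, GGGCGG for the GC box and GGAATG for the TEAD motif.
Aebp1, chr11:5861616-5861865: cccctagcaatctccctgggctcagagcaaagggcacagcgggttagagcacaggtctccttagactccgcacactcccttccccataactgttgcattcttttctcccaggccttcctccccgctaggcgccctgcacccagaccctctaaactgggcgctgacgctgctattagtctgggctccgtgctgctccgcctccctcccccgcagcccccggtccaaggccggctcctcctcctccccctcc
Olfml2b, chr1:170644282-170644531: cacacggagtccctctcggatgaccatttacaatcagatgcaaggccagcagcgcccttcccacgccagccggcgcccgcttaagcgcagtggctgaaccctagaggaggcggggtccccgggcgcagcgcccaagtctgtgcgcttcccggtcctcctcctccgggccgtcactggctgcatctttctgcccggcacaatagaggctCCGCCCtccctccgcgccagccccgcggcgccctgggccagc
Ltbp1, chr17:75005279-75005528: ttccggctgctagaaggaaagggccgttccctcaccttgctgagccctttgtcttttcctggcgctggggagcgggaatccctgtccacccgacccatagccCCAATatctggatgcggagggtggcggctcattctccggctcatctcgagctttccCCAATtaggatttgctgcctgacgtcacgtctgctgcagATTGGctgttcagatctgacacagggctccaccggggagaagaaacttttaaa

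The RefSeq start of Olfml2b is that of the GENCODE annotation behind the exon lengths. Those of Aebp1 (chr11, 5861866) and Ltbp1 (chr17, 75005529) lie upstream of the GENCODE gene starts (5861947 and 75005568), and the bases after them were in no GENCODE transcript of the gene, so these windows rest on the RefSeq start alone. The Aebp1 window held none of the 4 motifs. The Olfml2b window held a GC box on the opposite strand, 42 bases before the start, and the Ltbp1 window held 3 CCAAT box matches at 148, 92 and 53 bases, the last on the opposite strand. Among all 32851 windows of the table, 32.7% held the GC box, 33.8% the CCAAT box, 12.4% the TATA box and 12.6% the TEAD motif. Of the 16 described members with an entry, 10 held the GC box in at least 1 window, 6 the CCAAT box, and 0 the TATA box or the TEAD motif. These are counts of genes, some with more than 1 window, so they cannot be set against the shares of single windows. These matches are a description of letters in a fixed window and say nothing of a factor's binding.

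Aebp1 (chr11:5861947-5872088 in mm10) stood at 288, 302 and 321 CPM in WT replicates 4, 5 and 6 and at 638, 665 and 685 CPM in KO replicates 4, 5 and 6. All KO-labelled libraries lay above all WT libraries, and each group was tight. It rose 2.18-fold, a log2 fold change of 1.13 ± 0.21 (SE; 95% interval 0.69 to 1.56; edgeR adjusted p = 0.0258). Olfml2b (chr1:170644532-170682789) stood at 369, 330.3 and 301 CPM in WT and at 672, 776 and 697 CPM in KO-labelled libraries, again without overlap. It rose 2.14-fold, a log2 fold change of 1.10 ± 0.21 (95% interval 0.66 to 1.54; edgeR adjusted p = 0.0279). Neither call held in all of the smaller fits. With any 1 library left out the adjusted p of Aebp1 ran from 0.0823 to 0.205, and Olfml2b passed without WT replicate 4 (0.0468) but not without any other (0.0884 to 0.214), while their log2 fold changes stayed between 1.03 and 1.18.

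Fibronectin, the latent TGF-beta binding protein Ltbp1 and the laminin beta 1 chain stood higher in every KO-labelled library but did not pass over all genes. Fn1 (chr1:71585520-71653200) stood at 321, 292 and 237 CPM in WT and at 425, 665 and 644 CPM in KO-labelled libraries. KO replicate 4 was the lowest of its group and still above each WT library (log2 fold change 1.03 ± 0.25, edgeR adjusted p = 0.108). Ltbp1, which tethers latent TGF-beta to the matrix (chr17:75005568-75392512), stood at 254, 248 and 131 CPM in WT and at 472, 372 and 434 CPM in KO-labelled libraries (1.02 ± 0.29, edgeR adjusted p = 0.269). Lamb1 (chr12:31265234-31329644) stood at 129.5, 152 and 154 CPM in WT and at 289, 235 and 305 CPM in KO-labelled libraries (0.93 ± 0.29, edgeR adjusted p = 0.363). DESeq2, which called 234 of 9357 genes (2.5%), passed all 3 of these, with adjusted p-values of 3.79e-04, 0.00551 and 0.0116.

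**Figure D2:**
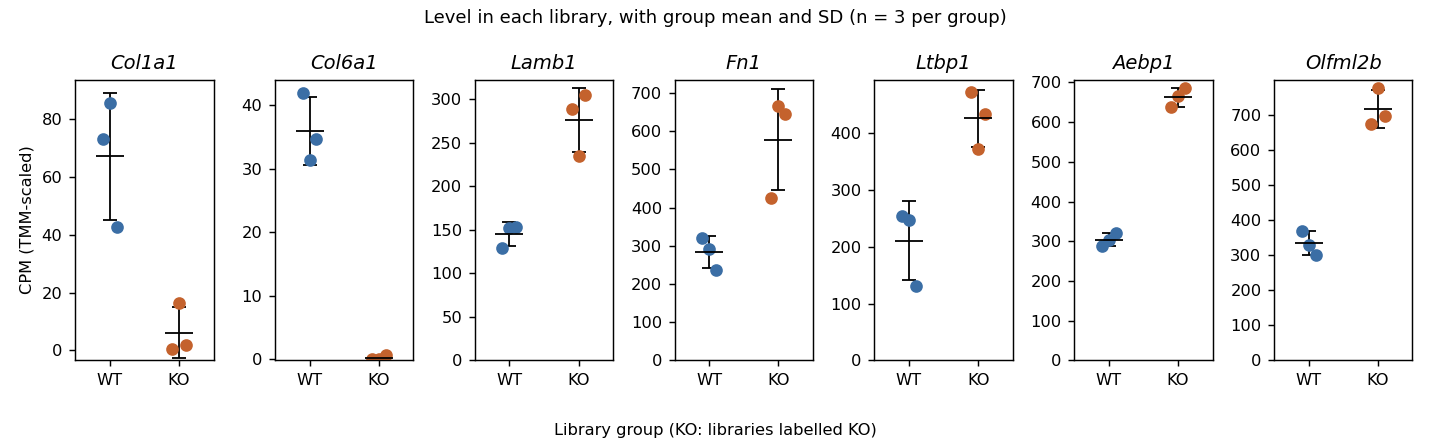
Level in CPM (linear axes, a separate scale for each gene) of the 7 matrix genes with an unadjusted edgeR p under 0.05, by group. Points are libraries, and the bar and whiskers are the group mean and SD. The groups do not overlap in any panel, but the panels were chosen by a p from these same values, so this carries no test. Col1a1 and Col6a1 are the panels in which KO-labelled libraries lie near 0. Col6a1 met the count limit through its WT libraries alone and had to differ.

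A fibrillar and a beaded filament chain stood lower in the KO-labelled libraries. Col1a1, the chain that makes up most of type I collagen, stood at 73.0, 85.4 and 42.8 CPM in WT and at 0.390, 16.3 and 1.86 CPM in KO-labelled libraries. KO replicate 5 was nearest to WT, and the groups did not overlap (log2 fold change -3.44 ± 1.19, 95% interval -5.98 to -0.90; edgeR adjusted p = 0.479). Without KO replicate 5 the log2 fold change was -5.78. Its partner Col1a2 had 0 counts in all WT libraries and 6 in KO replicate 6, so only the alpha 1 chain of type I collagen was counted in WT. Col6a1 (chr10:76708792-76726168), a chain of the beaded filaments, had 69, 63 and 60 counts in WT, or 42.0, 31.5 and 34.7 CPM. KO-labelled libraries had 0, 0 and 2 counts, a ratio of 145 between the groups with a 95% counting interval of 39.6 to 1210. That interval leaves out the spread between libraries. The edgeR 95% interval of the log2 fold change of Col6a1 was wider, at -11.78 to -2.27 (edgeR adjusted p = 0.408). Col6a2 and Col6a3, the partners of Col6a1, had 0 counts in WT and 2 and 3 counts in KO replicate 6. DESeq2 passed both as lower (adjusted p = 0.0297 for Col1a1 and 0.00158 for Col6a1), but edgeR did not. Col6a1 met the count limit through its WT libraries alone, so it had to differ. Its ratio, interval and p-values therefore describe its counts and add no support for a lower chain. The fitted value for Col6a1 depends on the prior count.

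The other fibrillar and fibril-associated chains were too low and uneven to place. Col5a2 stood at 42.0, 9.99 and 20.2 CPM in WT and at 15.6, 20.6 and 7.76 CPM in KO-labelled libraries. Its trimer partner Col5a1 had 30, 1 and 24 counts in WT and 41, 0 and 0 in KO-labelled libraries, so that 1 library carried the whole KO-labelled level. Their log2 intervals ran from -4.03 to 2.60 and from -6.65 to 4.61, which leave large differences in either direction. Col12a1 and Col16a1, which decorate fibrils, had log2 fold changes of -0.49 ± 1.85 and -0.07 ± 1.88. Col12a1 had 122 counts in WT replicate 5, 182 in KO replicate 6 and 36 or fewer in each of the other libraries.

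The type IV chains, the collagens of basement membranes, were the best covered of the collagen chains. Col4a1 stood at 165, 184 and 128 CPM in WT and at 267, 219 and 243 CPM in KO-labelled libraries, without overlap (log2 fold change 0.61 ± 0.29, edgeR adjusted p = 0.807). Col4a2 stood at 215, 207 and 151 CPM in WT and at 124, 367 and 408 CPM in KO-labelled libraries, where replicate 4 lay below every WT library (0.65 ± 0.38, edgeR adjusted p = 0.980). These genes lie head to head on chromosome 8 in mm10, and their annotated first exons share 22 bases at chr8:11312805-11312826. The Col4a1 to Col4a2 ratio, per kb, was 0.681, 0.788 and 0.754 in WT and 1.90, 0.529 and 0.528 in KO replicates 4, 5 and 6, with KO replicate 4 apart from the other 5 libraries. Col4a5, the chain found with Col4a6 in some epithelial basement membranes, stood at 133, 224 and 176 CPM in WT and at 188, 158 and 171 CPM in KO-labelled libraries. The groups overlapped (log2 fold change -0.04, 95% interval -0.73 to 0.64; edgeR adjusted p = 0.99996), and its sign turned when libraries were scaled by their totals.

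Among the laminins the counted chains were those of the alpha 5 trimers, with Lama5, Lamb1, Lamb2 and Lamc1 present in every library. Lama5 and Lamb2 had overlapping groups, with log2 fold changes of 0.11 (95% interval -0.39 to 0.62) and 0.03 (-0.47 to 0.54). Lamc1, the gamma chain shared by most laminins, stood at 522, 345 and 406 CPM in WT and at 349, 247 and 351 CPM in KO-labelled libraries, with overlap (-0.42 ± 0.25, edgeR adjusted p = 0.981). The Lamb1 to Lamc1 ratio, per kb, was thus 0.207, 0.368 and 0.316 in WT and 0.692, 0.793 and 0.724 in KO-labelled libraries. The Lamb1 to Lamb2 ratio, between alternative beta chains, was 0.286, 0.261 and 0.265 in WT and 0.565, 0.429 and 0.516 in KO-labelled libraries. Neither ratio overlapped between the groups, whereas the Lama5 to Lamc1 ratio was 0.658, 1.21 and 0.622 in WT and 1.09, 1.24 and 1.16 in KO-labelled libraries. These ratios use the values that gave Lamb1 its fold change, so they carry no test.

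**Figure D3:**
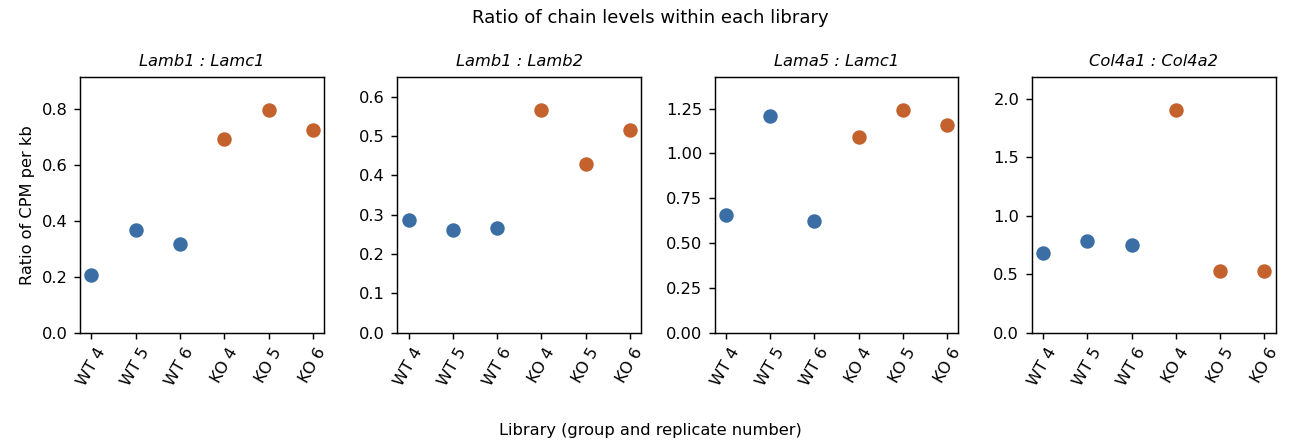
Ratio of the CPM per kb of chain genes of the same network within each library (linear axes from 0), with WT libraries in blue and KO-labelled libraries in orange. Lamb1 against Lamc1 and against Lamb2 separates the groups, Lama5 against Lamc1 does not, and Col4a1 against Col4a2 is 1.90 in KO replicate 4 and under 0.8 in the other 5 libraries.

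The glycoproteins Sparc, Fbln2, Efemp1, Thbs1 and Efemp2 had smaller estimates, and none passed. Sparc stood at 987, 799 and 997 CPM in WT and at 1254, 1265 and 1038 CPM in KO-labelled libraries, higher without overlap (log2 fold change 0.35 ± 0.18, edgeR adjusted p = 0.858). Fibulin 2 (Fbln2) and Efemp1, proteins of basement membranes and elastic fibres, had overlapping groups, with log2 fold changes of 0.22 ± 0.24 and -0.20 ± 0.24. Thrombospondin 1 (Thbs1), an activator of latent TGF-beta, had -0.17 ± 0.44, and Efemp2, a fibulin needed for elastic fibre assembly, had 0.19 ± 0.80. The 95% intervals were -0.03 to 0.74 for Sparc, -0.28 to 0.73 for Fbln2, -0.73 to 0.32 for Efemp1, -1.12 to 0.78 for Thbs1 and -1.52 to 1.91 for Efemp2.

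By subclass, estimates lay above 0 for 7 of 9 glycoproteins and 3 of 4 laminin chains, and below 0 for 7 of 9 collagens. Median log2 fold changes were 0.35, 0.07 and -0.49 in that order, against -0.02 over all tested genes, of which 49% lay above 0. The collagen median is the estimate of Col12a1 (SE 1.85), whose sign turned in 3 fits with 1 library left out. Col6a1, counted among the collagens below 0, had to differ. All 3 fibrillar collagens and both fibril-associated ones lay below 0, and 2 of the 3 type IV chains above 0. Of these, Col5a1, Col5a2, Col12a1 and Col16a1 were too low and uneven to place. Scaling by library totals moved all genes up by 0.11 and put 14 in place of 12 of the 22 above 0. The members that crossed were the collagens Col4a5 (0.07) and Col16a1 (0.01), so the collagen count depends on the scaling. An unadjusted p under 0.05 was reached by 5 higher and 2 lower members (Col6a1 among the lower, which had to differ). Of all tested genes 6.49% reached it, 2.7% as higher and 3.79% as lower. Groups did not overlap for 9 of the 22, 7 higher and 2 lower (Col6a1 among them, which had to differ), where 14.9% of all tested genes had such groups, 6.94% higher and 7.93% lower. Of the 14 members with a mean of at least 100 CPM, 7 had groups without overlap, all higher, where the share among the 1740 tested genes of that level was 22.6% in either direction and 9.6% as higher.

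**Figure D4:**
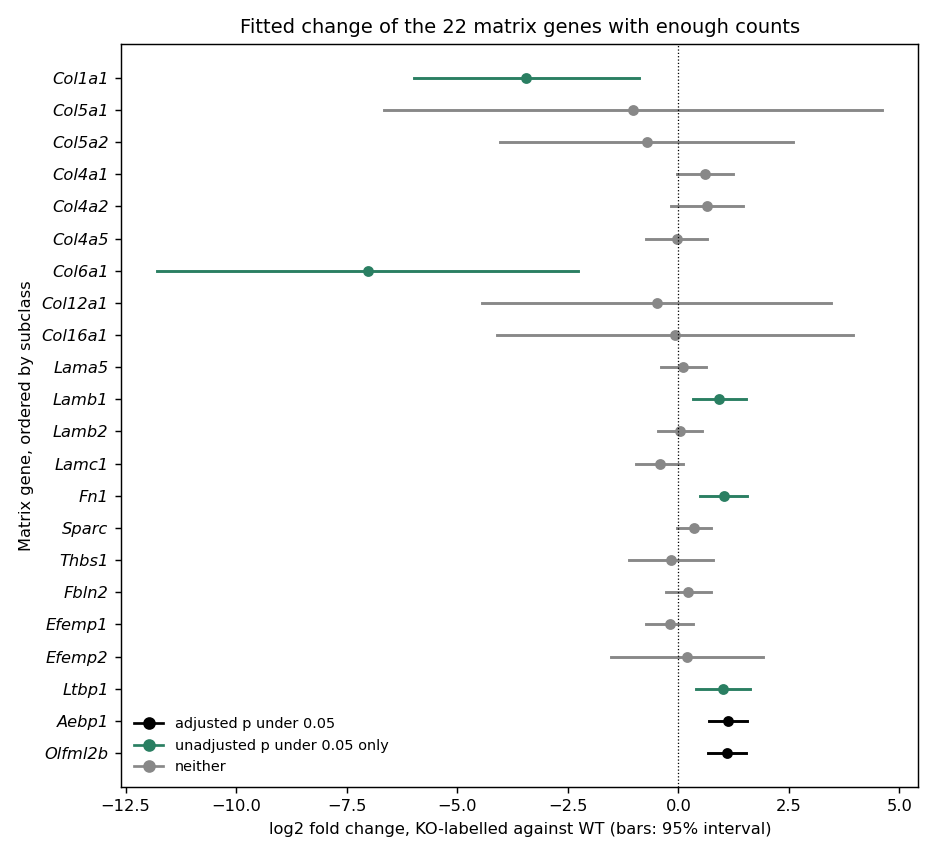
Log2 fold change of the 22 matrix genes described, KO-labelled against WT libraries (points), with 95% intervals (bars), in the order of the subclasses. Aebp1 and Olfml2b have an adjusted p under 0.05, the intervals of 5 more genes lie clear of 0, and those of the low collagens Col5a1, Col5a2, Col12a1 and Col16a1 reach several log2 units to either side. Col6a1, among the 5, met the count limit through its WT libraries alone and had to differ, and its point depends on the prior count.

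Genes that work with these proteins were read out from the same fit. Among 26 partner chains and close relatives of the members, 15 had a count and 4 were tested, and none passed. Of 17 tested genes of collagen modification and folding none passed, with 9 estimates above 0 and 8 below and a median of 0.26. Crtap, a subunit of the prolyl 3-hydroxylase complex, had the only unadjusted p under 0.05 of that list, at 28.6, 48.0 and 14.4 CPM in WT against 141, 40.7 and 75.1 under the KO label (edgeR adjusted p = 0.713).

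Of 11 tested genes of propeptide cleavage and crosslinking, 1 passed, as lower, and the median was 0.37. This was the transglutaminase Tgm2, at 259, 249 and 243 CPM in WT against 0, 3.42 and 1.55 under the KO label (edgeR adjusted p = 2.06e-04), and limma-voom did not call it (0.0976). With 0, 8 and 5 counts under the KO label, Tgm2 passed the low-count filter through its WT libraries alone, so it had to differ. The lysyl oxidase Lox stood the other way, at 122, 127 and 46.2 CPM in WT against 342, 317 and 233 under the KO label (edgeR adjusted p = 0.110). It passed with the replicate block (0.0382), with no filter on low counts (0.00193) and in DESeq2 (4.27e-04). Of 14 tested matrix receptors none passed, with a median of 0.06. Cd44, the hyaluronan receptor, stood at 323, 340 and 332 CPM in WT against 644, 590 and 690 under the KO label (edgeR adjusted p = 0.0657), and passed with library totals (0.0302), with no filter on low counts (0.0305) and in DESeq2 (6.77e-06). Bcam, a receptor for laminin alpha 5, stood at 168, 197 and 177 CPM in WT against 108, 75.4 and 111 under the KO label (edgeR adjusted p = 0.569). Of 6 tested proteoglycans and linking proteins (Hspg2, Agrn, Ntn4, Pxdn, Dcn and Bgn) none passed, with 5 estimates above 0 and a median of 0.46. The small proteoglycans decorin (Dcn) and biglycan (Bgn) had groups without overlap, with log2 fold changes of 0.67 ± 0.19 and 0.92 ± 0.27 and edgeR adjusted p-values of 0.246 and 0.304. DESeq2 passed both (0.00457 and 0.00804).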

How the data were processed

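Poly(A) RNA of 6 libraries was sequenced. The authors deposited a raw count for each gene and library, without normalization. The submitters' processing notes name fastp, HISAT2 (2.0.5), featureCounts (1.5.0-p3) and build mm10; settings, strand mode and annotation release were not stated there. Gene IDs were matched to GENCODE M21 for symbols, coordinates and exon lengths (53360 of 53465).

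The test was edgeR's (4.0.16, under R 4.3.3): filterByExpr (minimum count 10, leaving 8200 genes), TMM scaling, a robust quasi-likelihood fit with group as its only term, and a two-sided test. P-values were adjusted by Benjamini-Hochberg over the whole set of 8200, and 0.05 was the threshold. SE and 95% intervals were derived from the F statistic. The script was checked on simulated counts. Levels per kb divide CPM by the union of annotated exons. The counting interval is exact (conditional binomial, 95%). Replicate pairs differed by far more than counting noise (chi-square per degree of freedom 21.8 to 52.2), so none was a repeated deposit.

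Values in every library are given for members with an adjusted or unadjusted p under 0.05 and for chains of collagens I, IV, V and VI; Nat10 and, from each related list, genes past the threshold or the 2 smallest p under 0.05 are named. Lama5, Lamb2, Lamc1, Sparc and markers are named beyond this rule, chosen with their values in view. Some results that the rule names are not reported here. Members, lists and tests were chosen with earlier results of these data known. Alternatives were DESeq2 1.42.0, limma-voom (limma 3.58.1), DESeq2 size factors, library totals, 3 other filters, the replicate number as a block and leaving out each library.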

Additional observations from a re-analysis of the deposited data

How the results depend on the processing

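Over all genes 33 passed, 91 with no filter on low counts, 234 in DESeq2 and 6 to 29 with 1 library left out. Among the members 2 passed, 7 in DESeq2 and 0 to 1 with 1 library left out: 1 without WT replicate 4 and 0 without each of WT replicates 5 and 6 and KO replicates 4, 5 and 6. The 7 were Aebp1, Olfml2b, Fn1, Ltbp1, Lamb1, Col1a1 and Col6a1, of which Col6a1 met the count limit through its WT libraries alone. With no filter Fn1 passed as well (adjusted p = 0.0184). With library totals 27 genes passed as higher and 16 as lower, against 15 and 18 with TMM. The number of members with an estimate above 0 was 12 and ran from 11 to 15, and 19 to 22 members kept 10 counts in 3 libraries when 1 library was left out. The number at 10 CPM per kb, 15, was the same under DESeq2 size factors and library totals, and the chain ratios do not depend on scaling. Limma-voom moved the median of all genes by -0.12.

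The replicate number as a block gave 38 genes and 2 members, Aebp1 (adjusted p = 0.0413) and Olfml2b (0.046); among the named genes it changed the call of Lox alone. Same-numbered libraries did not deviate together (correlations -0.017, -0.003 and -0.007 for numbers 4, 5 and 6). Not every library correlated best with its own number. With 3 libraries in each group, these correlations cannot tell whether same-numbered libraries shared a culture or a batch.

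Estimates near 0 changed sign in some settings, none past the threshold. With library totals Nat10 was at 0.03, Col4a5 at 0.07 and Col16a1 at 0.01, and limma-voom gave 0.02 for Nat10. With 1 library left out the log2 fold change ran from -0.35 to 0.35 for Nat10, -0.22 to 0.16 for Col4a5, -4.39 to 0.84 for Col12a1, -0.99 to 0.48 for Col16a1, -0.06 to 0.30 for Lama5, -0.08 to 0.09 for Lamb2 and -0.12 to 0.49 for Efemp2. The cause of these changes was not tested. The fits with 1 library left out have fewer samples, and 1 count is worth 0.310 to 0.608 CPM. The low collagens were also uneven between libraries and cannot be placed from these data.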

Other observations

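Beside the 41 genes the table lists 32 further collagen and laminin chain genes, matched by the pattern of their symbols. Of these 9 had a count. Col4a6, the partner chain of Col4a5, had 242, 163 and 240 counts under the WT label and 244, 352 and 523 under the KO label (replicates 4, 5 and 6 in that order), with a log2 fold change of 0.15 ± 0.39 (edgeR adjusted p = 0.99996). Col4a4, another chain of type IV, had 20 counts in each of WT replicates 4 and 5 and 0 elsewhere.

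The 41 genes together held 0.503%, 0.474% and 0.476% of all counts with the WT label, against 0.655%, 0.715% and 0.718% with the KO label, in the order of the replicate numbers. These are shares of raw totals, to which the abundant members add most. Of the 22 described members, 12 estimates lay above 0 and 10 below, with a median log2 fold change of 0.07.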
